A study of Mus musculus with 2 samples.

Results

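The Ms4a genes described here are Ms4a1, Ms4a2, Ms4a4b, Ms4a4c, Ms4a6b, Ms4a6c, Ms4a6d and Ms4a7, taken by gene symbol as 8 of the 32285 genes measured. The files also hold 11 other Ms4a genes. Levels were read in single cells sorted from the lungs of adult mice (8 weeks old) and of neonatal mice (7 days old). All animals carried zbtb46-cre and rosa26-yfp, a strain labelled zbtb46-yfp, so that cells which express the DC (dendritic cell) transcription factor Zbtb46 or which descend from cells that expressed it, make YFP. The sort took live cells with CD45.2 and YFP, in 2 adult pools and 2 neonatal pools, each prepared separately from at least 5 mice, and the pool is the replicate throughout (n = 2 per age). The labels call the sorted cells dendritic cells, but the sort also held monocytes, neutrophils, lymphocytes and basophils, and this spread of leukocytes is what allows the family to be followed across cell types.

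MS4A proteins span the membrane several times and are best known from leukocytes, where some of them sit beside receptors and tune their signals. Ms4a1 encodes CD20, the B cell surface protein that depleting antibodies bind, and Ms4a2 encodes the beta chain of the high-affinity IgE receptor, which amplifies its signal in mast cells and basophils. Ms4a4b is known from mouse T cells, where its protein was found with the costimulatory receptor GITR (Tnfrsf18), and Ms4a6d is known from mouse macrophages, where its protein was found with the complement receptor VSIG4. Ms4a7 is known as a macrophage and microglia gene, while the roles of Ms4a4c, Ms4a6b and Ms4a6c are less settled.

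All 8 genes lie on chromosome 19, within 374 kb that also hold other members of the family (GRCm38 coordinates, counted from 1). From left to right these are Ms4a1 (11249675 to 11266241, minus strand), Ms4a7 (11321039 to 11336146, minus strand), Ms4a4c (11404770 to 11427246, plus strand), Ms4a4b (11443553 to 11467055, plus strand) and Ms4a6c (11469366 to 11482192, plus strand). They are followed by Ms4a6b (11516512 to 11531256, plus strand), Ms4a6d (11586604 to 11604849, minus strand) and Ms4a2 (11615523 to 11623719, minus strand). Members side by side in this row shared the class with most of their UMIs in some cases (Ms4a7 with Ms4a4c and Ms4a6c with Ms4a6b, all in classical monocytes) and not in others. Ms4a4b, whose UMIs (counted molecules) lay mostly in lymphocytes, sits between Ms4a4c and Ms4a6c, which were highest in classical monocytes. Ms4a2, highest in basophils, sits next to Ms4a6d, whose UMIs lay mostly in type 2 classical DC (cDC2).

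**Figure D1:**
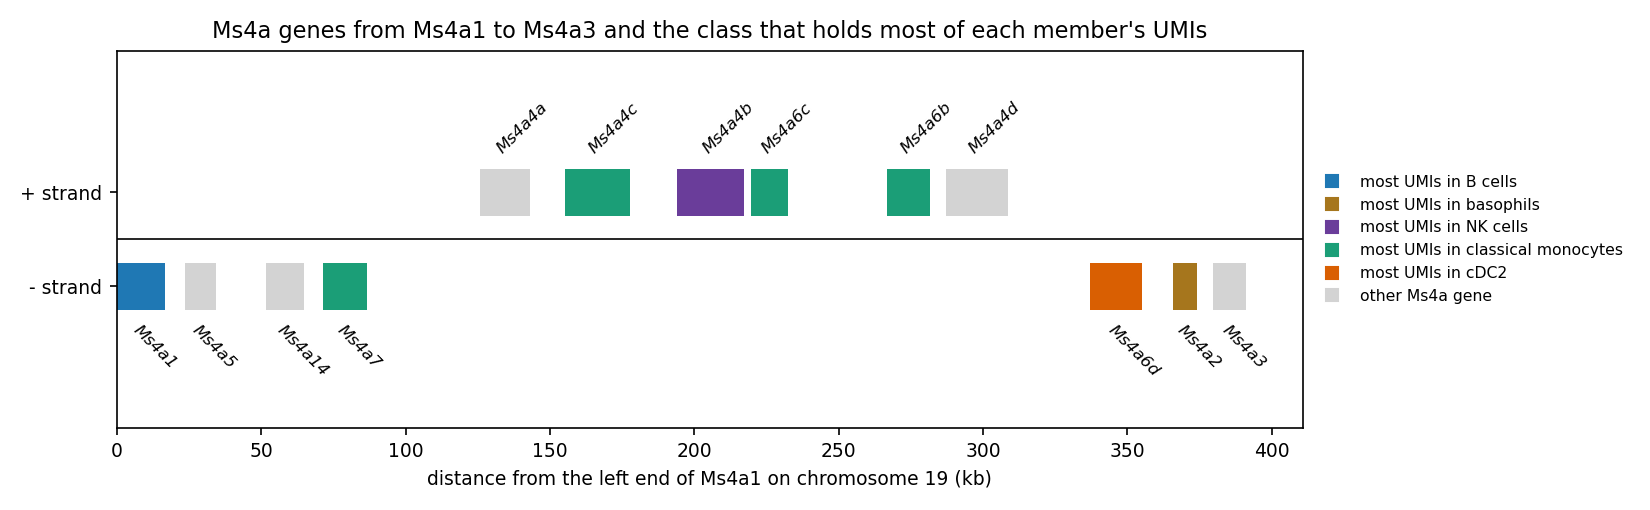
Positions of the Ms4a genes from Ms4a1 to Ms4a3, drawn to scale as distance in kb from the left end of Ms4a1, with each member coloured by the cell class that holds most of its UMIs and other Ms4a genes in grey. The members span 374 kb, and the 4 members led by classical monocytes are interrupted by Ms4a4b, led by NK cells.

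The stretches just before RefSeq transcript starts are shown for Ms4a2, as the member with the largest share of its UMIs in 1 class. They are also shown for Ms4a4c, Ms4a6b and Ms4a6c, as genes that were higher in adult monocytes. Sequences are from RefSeq on GRCm38.p6, which held starts for 6 of the 8 members (Ms4a7 with a pair of starts), and none was used for Ms4a1 and Ms4a6d. Each shows 250 bases upstream of the start, 5′ to 3′ on the gene's own strand, in lower case, with exact matches on either strand in capitals. The motifs searched were AGATAA, which factors of the GATA family bind, GAAANNGAA (interferon regulatory factors), TGTGGT (RUNX), GAGGAAG (PU.1), TTGCNNAA (C/EBP), CAGGTG (E proteins) and AGGTGTGA (T-box). The windows are chr19:11623720-11623969 (minus strand) for Ms4a2, chr19:11407411-11407660 (plus strand) for Ms4a4c, chr19:11518309-11518558 (plus strand) for Ms4a6b and chr19:11469118-11469367 (plus strand) for Ms4a6c. The Ms4a4c and Ms4a6b windows lie inside the gene spans given above, as these RefSeq starts fall to the right of the left ends of those genes. The Ms4a7 window at chr19:11334696-11334945 (minus strand), searched but not shown, also lies inside its gene span.
Ms4a2: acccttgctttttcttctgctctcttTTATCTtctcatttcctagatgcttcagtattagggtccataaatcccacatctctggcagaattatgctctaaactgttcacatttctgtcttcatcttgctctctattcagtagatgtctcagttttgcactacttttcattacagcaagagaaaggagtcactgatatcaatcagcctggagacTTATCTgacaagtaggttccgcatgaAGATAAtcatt
Ms4a4c: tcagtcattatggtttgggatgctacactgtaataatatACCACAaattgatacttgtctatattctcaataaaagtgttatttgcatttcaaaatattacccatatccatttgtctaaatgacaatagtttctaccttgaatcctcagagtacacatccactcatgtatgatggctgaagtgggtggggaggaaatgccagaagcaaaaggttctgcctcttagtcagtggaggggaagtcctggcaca
Ms4a6b: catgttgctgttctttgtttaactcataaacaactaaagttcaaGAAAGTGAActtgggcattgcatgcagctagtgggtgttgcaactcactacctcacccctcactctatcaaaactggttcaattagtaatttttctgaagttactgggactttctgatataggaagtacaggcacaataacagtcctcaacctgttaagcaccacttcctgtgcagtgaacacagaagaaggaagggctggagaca
Ms4a6c: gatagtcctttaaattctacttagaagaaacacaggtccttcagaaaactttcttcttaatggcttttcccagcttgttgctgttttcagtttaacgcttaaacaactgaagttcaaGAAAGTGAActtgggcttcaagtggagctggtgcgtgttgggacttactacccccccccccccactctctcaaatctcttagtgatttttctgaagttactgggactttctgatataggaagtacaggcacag

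The Ms4a2 window held 3 GATA matches, at -224, -37 and -11 from the start, while 9.99% of 32851 RefSeq promoters hold at least 1 such match in the same 250 bases. Ms4a6b and Ms4a6c both held GAAAGTGAA, an interferon regulatory factor match, at -206 and at -133, and both Ms4a7 windows held another match of this kind, against 7.13% of all promoters. Ms4a4c held a RUNX match at -211, a motif found in 14.0% of promoters, and Ms4a4b held none of the 7 motifs. No match to PU.1, C/EBP, E protein or T-box motifs was found in these 7 windows, and in all promoters the shares were 10.6%, 9.56%, 17.2% and 1.12%. A match describes the letters and is not a measured binding site. The Ms4a6b and Ms4a6c windows also share an identical run of 48 bases, starting at -118 in Ms4a6b and at -49 in Ms4a6c, and those of Ms4a4b and Ms4a4c one of 20 bases. The likeness of Ms4a6b and Ms4a6c extends to the transcripts, whose last 500 bases share a run of 60 identical bases. Only a read lying wholly inside that run would fit both equally, and whether any did was not tested. Among the other pairs that hold at least 1 of the 8 members, the longest such run was 19 bases.

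Gene UMIs came to 8993471 and 8172362 in adult pools 1 and 2 and to 20346024 and 19549992 in neonatal pools 1 and 2. After filtering, 2030 and 1854 adult cells and 4412 and 4444 neonatal cells were kept, with median depths of 3165 and 3052 UMIs in adult cells and 3721.5 and 3559.5 UMIs in neonatal cells. Both pools of an age were tagged, joined and loaded in 1 channel, and expression of sex-linked genes showed male cells in the adult pools and female or mostly female cells in the neonatal pools, so age, channel and sex cannot be told apart. The cells of both ages shared 14 barcodes, and the pools within an age shared 0. Zbtb46 itself was low but present, at 36.2 and 29.0 CPM over all adult cells and 43.1 and 36.9 CPM over all neonatal cells. Cells were grouped into 23 clusters with every Ms4a gene left out of the clustering, and clusters were named from marker lists that hold no Ms4a gene, each name standing for cells like that type. Values are given as CPM, the UMIs of a gene scaled to one common total of UMIs per class and pool, in the order pool 1, pool 2. The 8 classes with at least 20 cells in every pool were tested between ages, and fold changes are adult over neonatal on a log2 scale, with ± giving the standard error.

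Each of the 8 genes had its own distribution over the leukocytes. Ms4a1 lay in B cells, where 310 of its 329 UMIs (94.2%) were found, and Ms4a2 in basophils, which held 520 of its 531 UMIs (97.9%). Ms4a4b lay in T cells and NK cells, and the other 5 in monocytes and cDC2, with Ms4a6b shared between monocytes and T cells. Finer clustering set C1q macrophages apart from cDC2. Ms4a7 then had its highest mean in those macrophages (50.6 CPM) and was at or near 0 in the remaining cDC2. Detection reached 4296 of 12740 cells for Ms4a6c, the gene with the most UMIs (15277), and 124 cells for Ms4a7, with 200 UMIs. Neutrophils, whose cells held a median of 1626 UMIs, had little of these genes. Ms4a6c was seen in 1.67% of adult and 2.28% of neonatal neutrophils, and Ms4a4c in 0.743% of adult and 0.104% of neonatal neutrophils. Whether these UMIs came from free RNA or from the neutrophils themselves was not tested.

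**Figure D2:**
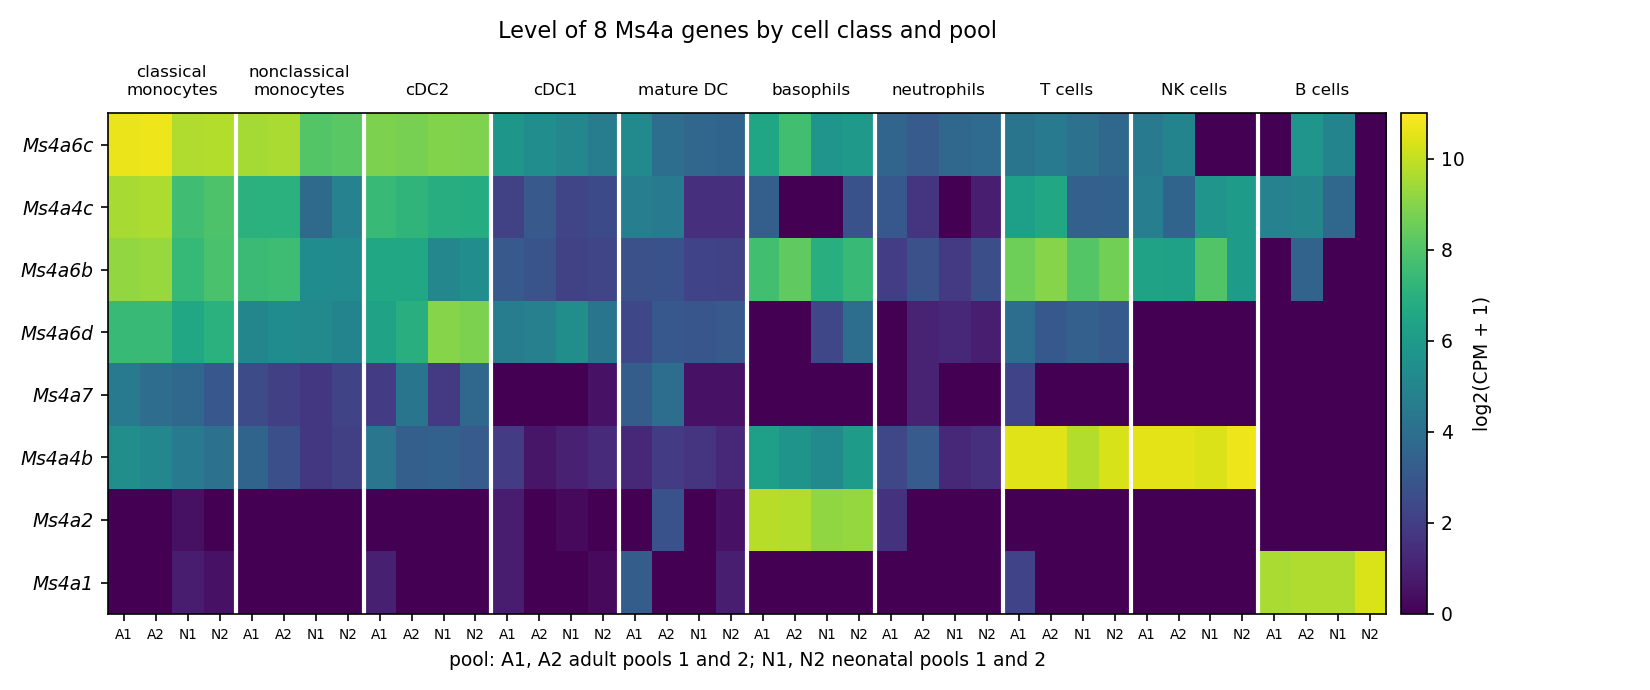
Level of the 8 members as log2(CPM + 1) in each class and pool, with the adult pools (A1, A2) left of the neonatal pools (N1, N2) in each class. Brighter colours stand for higher levels. Ms4a1 stands out in B cells, Ms4a2 in basophils and Ms4a4b in T cells and NK cells. Ms4a4c, Ms4a6b and Ms4a6c are brighter in adult than in neonatal monocytes.

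In the B cell cluster, led by the immunoglobulin and receptor genes Igkc and Cd79a, Ms4a1 was read at 770 and 837 CPM in adult pools and at 819 and 1310 CPM in neonatal pools. The pools of both ages overlapped. A UMI was found in 19 of 21 adult B cells (90.5%, exact 95% interval 69.6 to 98.8) and in 30 of 31 neonatal B cells (96.8%, 83.3 to 99.9), where the intervals cover counting error only. With 5 and 16 adult and 22 and 9 neonatal cells the class was too small for the test between ages. Ms4a6c had a UMI in 4 adult and 4 neonatal B cells, Ms4a4c in 3 adult and 2 neonatal ones, and Ms4a6b in 1 adult and 0 neonatal ones. Ms4a2, Ms4a4b, Ms4a6d and Ms4a7 had 0 UMIs there at both ages, which over 21 adult and 31 neonatal cells allows shares of cells with a UMI of up to 14.3% and 9.68% at a limit of 3 cells.

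In basophils, the IgE receptor gene Ms4a2 was read at 889 and 837 CPM in adult pools and at 583 and 620 CPM in neonatal pools. Both adult pools lay above both neonatal pools, with a log2 fold change of 0.59 ± 0.15 (edgeR quasi-likelihood test, Benjamini-Hochberg adjusted p = 0.0126). The class held 59 adult and 197 neonatal cells, and the call was lost without adult pool 1 (adjusted p = 0.210), without neonatal pool 1 (0.239) or without neonatal pool 2 (0.145). A UMI was seen in 91.5% of adult and 81.2% of neonatal basophils, and in 54.2% and 43.7% once each cell was thinned to 1000 UMIs.

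The partner subunit Fcer1a, the alpha chain that binds IgE, moved further in the same cells. Its levels were 962 and 914 CPM in adult pools and 299 and 258 CPM in neonatal pools, a log2 fold change of 1.83 ± 0.17 (edgeR, adjusted p = 2.65e-09). Fcer1g, the shared signalling gamma chain, had a log2 fold change of 0.25 ± 0.11 (adjusted p = 0.192). Of 9 mast cell and basophil genes tested in this class, 2 were higher in adult, Fcer1a and Gata2, a transcription factor of basophils (0.49 ± 0.12, adjusted p = 0.00567), and none was lower. The granule protease gene Mcpt8 had a log2 fold change of -2.07 ± 0.71 with an adjusted p of 0.344. The median over the list was -0.03, against -0.01 over all genes tested in basophils.

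Of the other members in basophils, Ms4a6b was read at 200 and 317 CPM in adult and 121 and 170 CPM in neonatal pools (0.81 ± 0.29, adjusted p = 0.0932). Ms4a6c was read at 90.8 and 203 CPM in adult and 52.6 and 58.5 CPM in neonatal pools (1.36 ± 0.42, adjusted p = 0.0384). This second call rested on 26 adult and 33 neonatal UMIs and was lost without adult pool 2 (0.75, adjusted p = 0.586), neonatal pool 1 (1.28, adjusted p = 0.161) or neonatal pool 2 (1.44, adjusted p = 0.162). The C1q macrophage list in basophils, with 8 of 14 markers detected and C1qc, Folr2, Cd163, Trem2, Mrc1 and Lyz1 at 0, summed to 163 and 431 CPM in adult and 1080 and 901 CPM in neonatal pools. The megakaryocyte list, with 2 of 6 detected, summed to 236 and 279 CPM in adult and 101 and 108 CPM in neonatal pools, and the part of either in the basophil results was not tested. In all, 2 of the 4 members tested in basophils were called, both higher in adult, where 8.91% of all genes tested were called and 4.97% were called higher in adult.

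Ms4a4b was high in T cells and NK cells and not in the other lymphocytes, with 0 UMIs in B cells and 17.2 to 29.6 CPM in innate lymphoid cells. In T cells it was read at 1396 and 1417 CPM in adult pools and at 857 and 1288 CPM in neonatal pools, and its log2 fold change of 0.55 ± 0.18 did not pass the test (edgeR, adjusted p = 0.151). The neonatal class includes 40 cells of a cluster led by Rag1, a gene of developing lymphocytes, that no adult cell joined and in which Ms4a4b had 3 UMIs. Without that cluster the neonatal T cell values were 1231 and 1403 CPM, and the fold change was 0.23 ± 0.10 (adjusted p = 0.298). NK cells carried Ms4a4b at 1475 and 1477 CPM in adult and 1353 and 1685 CPM in neonatal pools, with a UMI in 93.4% of adult and 94.7% of neonatal cells. NK cells held 2195 of the gene's 4416 UMIs and had too few neonatal cells for the test. In neutrophils Ms4a4b was seen in 0.651% of adult and 0.311% of neonatal cells.

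Ms4a6b accompanied Ms4a4b in T cells, at 380 and 504 CPM in adult and 266 and 398 CPM in neonatal pools (0.57 ± 0.22, adjusted p = 0.172). Means over the 4 pools were alike, 387 CPM in T cells and 404 CPM in classical monocytes, but the order turned with age: T cells lay below the 601 and 623 CPM of adult classical monocytes and above the 166 and 228 CPM of neonatal ones. Both genes were seen together in 89 of the 126 adult T cells with Ms4a4b, and in 117 of 177 such neonatal cells. After thinning, both were in 37 adult and 30 neonatal cells, against 33.5 and 27.0 cells from the product of the separate shares.

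Ms4a4c was the 1 member called in T cells, where 4.65% of all genes tested were called and 3.33% were called higher in adult. It was read at 73.1 and 95.9 CPM in adult pools and at 9.32 and 9.67 CPM in neonatal pools, from 47 adult and 9 neonatal UMIs. The log2 fold change was 3.27 ± 0.45 (adjusted p = 0.000329), and 20.6% of adult against 3.63% of neonatal T cells had a UMI. The call was lost without neonatal pool 1 (3.23, adjusted p = 0.672) or without neonatal pool 2 (3.30, adjusted p = 0.482), at nearly the same fold change. Ms4a4c passed the filter on low counts in T cells through the adult pools alone, so that a gene that passed had to differ, and this call is given as a description. The T cell class also carried more NK cell transcripts in adults, with all 14 NK markers detected and summing to 19100 and 21400 CPM in adult and 4570 and 6310 CPM in neonatal pools. In the NK cells themselves, Ms4a4c stood at 25.05 and 10.6 CPM in adult pools and at 52.1 and 66.1 CPM in neonatal pools, the last from 3 UMIs. The part of NK cell transcripts in the T cell result was not tested.

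Classical monocytes, the Ly6c2 and Ccr2 expressing cells that leave the blood for tissues, held the highest mean levels of Ms4a4c, Ms4a6b, Ms4a6c and Ms4a7 among the 8 tested classes, over both ages, with Ms4a6b close to its level in T cells and Ms4a7 its level in cDC2. Here 6 of 6 tested members were higher in adult, while 18.3% of all genes tested were called and 11.2% were called higher in adult. Ms4a4c was read at 760 and 798 CPM in adult pools and at 197 and 243 CPM in neonatal pools, a log2 fold change of 2.01 ± 0.07 (edgeR, adjusted p = 2.14e-52). Ms4a6b was read at 601 and 623 CPM in adult and 166 and 228 CPM in neonatal pools (1.83 ± 0.10, adjusted p = 2.66e-12). The groups lay far apart for both genes.

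Ms4a6c, was read at 1661 and 1669 CPM in adult and 819 and 853 CPM in neonatal pools (1.19 ± 0.05, adjusted p = 5.96e-56). It was seen in 98.3% of adult and 89.1% of neonatal classical monocytes, or 76.1% and 51.4% after thinning to 1000 UMIs. Ms4a4c had a UMI in 92.8% of adult and 45.5% of neonatal cells, or 45.1% and 16.6% after thinning. Ms4a6d stood at 173 and 170 CPM in adult and 95.8 and 128 CPM in neonatal pools (0.81 ± 0.11, adjusted p = 1.76e-09). Ms4a4b, at 42.3 and 34.4 CPM in adult and 22.1 and 16.7 CPM in neonatal pools, had a log2 fold change of 1.17 ± 0.22 (adjusted p = 9.95e-06).

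Ms4a7 was scarce, at 21.6 and 14.2 CPM in adult and 11.7 and 7.01 CPM in neonatal classical monocytes (1.12 ± 0.33, adjusted p = 0.00686), with a UMI in 9.23% of adult and 2.00% of neonatal cells. Its call was lost without adult pool 1 (0.79, adjusted p = 0.292) or without neonatal pool 2 (0.81, adjusted p = 0.144). The other 5 calls in classical monocytes held in each of the alternatives that tested them. The smallest adult fold among these 5 was that of Ms4a6d and the largest that of Ms4a4c.

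**Figure D3:**
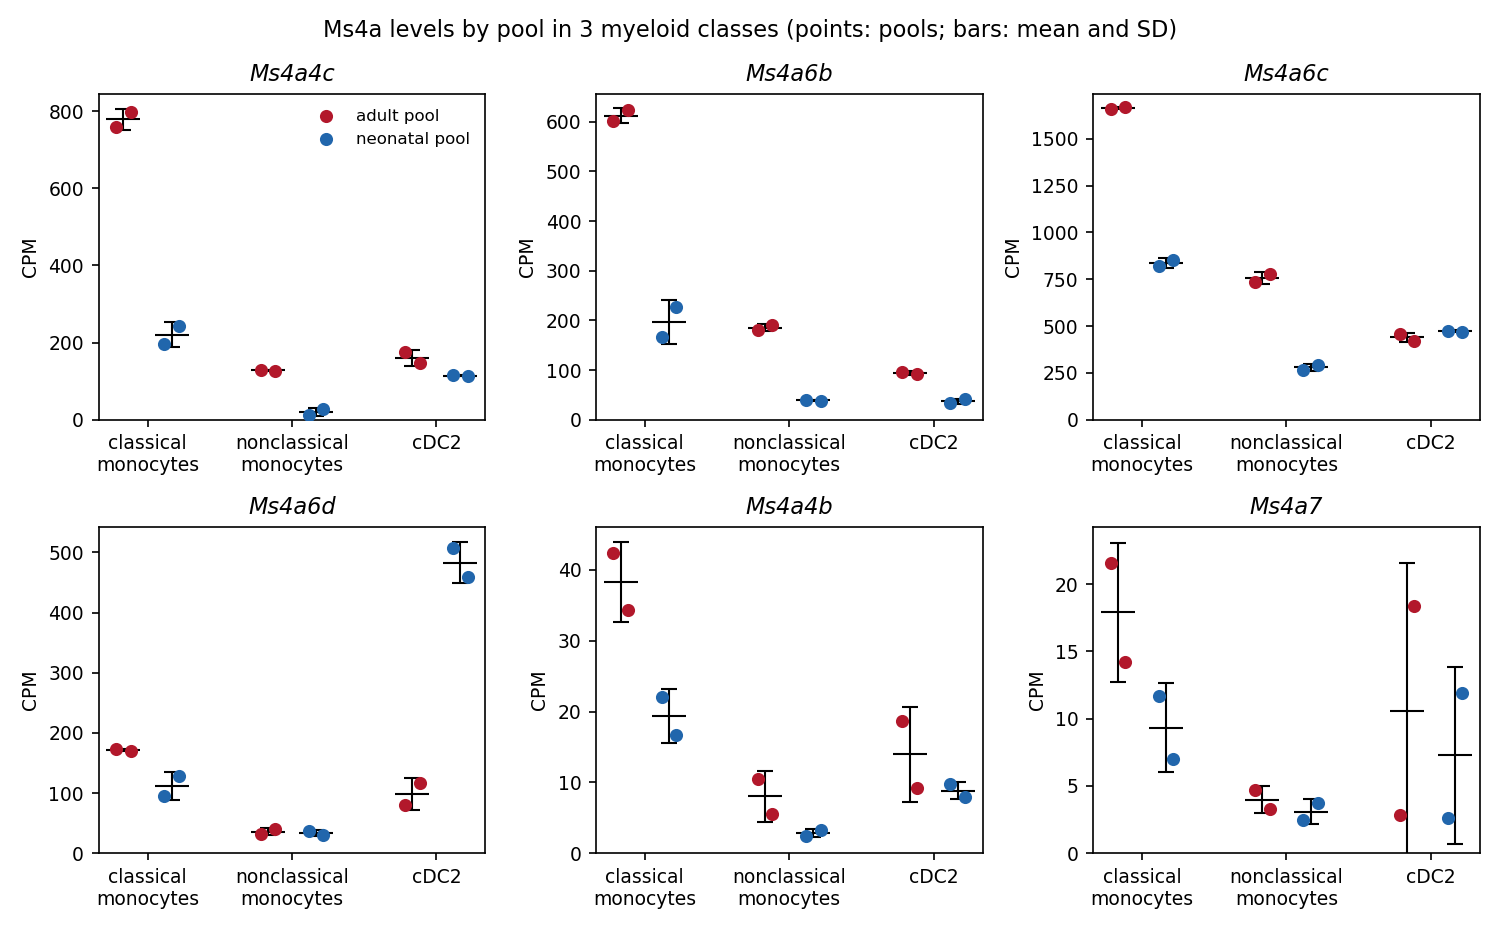
CPM of the members in classical monocytes, nonclassical monocytes and cDC2, with adult pools left of neonatal pools; points are pools and bars give the mean and SD of 2 pools. Ms4a4c, Ms4a6b and Ms4a6c are higher in both adult pools in both monocyte classes, and Ms4a6d is lower in both adult pools in cDC2.

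Most classical monocytes of either age lay in different clusters. Cluster 11 held 192 and 169 adult and 8 and 19 neonatal cells, and cluster 2 held 16 and 24 adult and 564 and 511 neonatal cells. In cluster 11, Ms4a4c was read at 781 and 821 CPM in its adult cells and at 548 and 670 CPM in its few neonatal cells. In cluster 2, it was read at 463 and 567 CPM in its few adult cells and at 194 and 226 CPM in its neonatal cells. For Ms4a4c, adult pools were above neonatal pools within each cluster, and cluster 11 was above cluster 2 at each age. The adult pools were likewise above the neonatal pools in both clusters for Ms4a6b and Ms4a6c. They overlapped in both clusters for Ms4a4b, Ms4a6d and Ms4a7: Ms4a6d was read at 176 and 180.3 CPM in adult and 39.2 and 193 CPM in neonatal cells of cluster 11, and at 122 and 66.1 CPM in adult and 96.4 and 125 CPM in neonatal cells of cluster 2. These within-cluster values rest on as few as 8 cells in a pool and were not tested. Ms4a4c itself was among the leading genes of cluster 11 although no Ms4a gene entered the clustering, beside Ifit3, an interferon-induced gene, and Fcgr1, a high-affinity IgG receptor gene.

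Nonclassical monocytes, the patrolling cells marked by Ace and Treml4, showed the same 3 genes at lower levels. Of 5 members tested, 4 were called, all higher in adult, where 19.8% of all genes tested were called and 10% were called higher in adult. Ms4a4c stood at 128 and 127 CPM in adult and 13.1 and 28.1 CPM in neonatal pools (2.72 ± 0.17, adjusted p = 5.42e-50). Ms4a6b stood at 180 and 190 CPM in adult and 39.6 and 38.6 CPM in neonatal pools (2.36 ± 0.13, adjusted p = 6.81e-68). Ms4a6c stood at 735 and 780 CPM in adult and 264 and 293 CPM in neonatal pools (1.56 ± 0.07, adjusted p = 1.51e-100). The groups did not overlap for any of the 3. Ms4a6c was seen in 76.8% of adult and 42.5% of neonatal cells, or 50.6% and 20.8% after thinning.

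Ms4a6d did not pass the test in nonclassical monocytes, at 31.6 and 39.5 CPM in adult and 36.6 and 30.3 CPM in neonatal pools (0.22 ± 0.22, adjusted p = 0.545). Ms4a4b was called there (1.58 ± 0.54, adjusted p = 0.0209) on 14 adult and 20 neonatal UMIs, having passed the filter through the adult pools alone, and the call was lost without adult pool 1 (1.04, adjusted p = 0.515). Adult and neonatal cells again fell into different clusters, with 272 and 293 adult cells in cluster 7 and 1259 and 1340 neonatal cells in cluster 0. In cluster 0, Ms4a6c was read at 832 and 580 CPM in its 11 and 9 adult cells and at 265 and 294 CPM in its neonatal cells. Ms4a6b there was 134 and 181 CPM in adult and 39.6 and 38.5 CPM in neonatal cells. For Ms4a4c the pools overlapped, at 134 and 0 CPM in adult cells, from 5 and 0 UMIs, and 13.2 and 27.9 CPM in neonatal cells. In cluster 7, with 13 and 22 neonatal cells, the adult pools lay above the neonatal pools for each of these genes. These within-cluster values were not tested.

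Markers of other cells moved with age inside the monocyte classes. The C1q macrophage list summed to 5430 and 6440 CPM in adult and 1780 and 1880 CPM in neonatal nonclassical monocytes, with 12 of 14 markers detected. In classical monocytes it summed to 4870 and 3790 CPM in adult and 2700 and 3060 CPM in neonatal pools, with 13 of 14 detected and Folr2 at 0. In C1q macrophages, separable at the finer clustering, Ms4a4c stood at 16.03 and 0 CPM in adult and 9.02 and 13.9 CPM in neonatal pools. Ms4a6b there was 16.03 and 58.5 CPM in adult and 45.1 and 55.6 CPM in neonatal pools, and Ms4a6c 128 and 213 CPM in adult and 307 and 357 CPM in neonatal pools. For Ms4a6c, adult C1q macrophages lay below adult nonclassical monocytes, and neonatal C1q macrophages lay above neonatal nonclassical monocytes. Classical monocyte markers summed to 2710 and 2620 CPM in adult and 5700 and 5950 CPM in neonatal nonclassical monocytes, and classical monocytes had more of all 3 genes than nonclassical monocytes of the same age. Neutrophil markers in classical monocytes summed to 224 and 248 CPM in adult and 1060 and 1250 CPM in neonatal pools. Erythroid markers in nonclassical monocytes summed to 9.37 and 12.1 CPM in adult and 379 and 950.0 CPM in neonatal pools. The part of C1q macrophage, neutrophil and erythroid transcripts in the monocyte results was not tested. Nor was that of classical monocyte transcripts in the nonclassical monocyte results.

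The size of the age effect differed between the monocyte classes for 3 of 6 members tested, where 7.63% of all genes tested were called for such a difference. The log2 fold change was smaller in classical than in nonclassical monocytes for Ms4a4c (difference -0.73 ± 0.17, adjusted p = 0.000637), Ms4a6b (-0.54 ± 0.14, adjusted p = 0.00612) and Ms4a6c (-0.38 ± 0.07, adjusted p = 3.53e-05). The difference for Ms4a4c was lost without neonatal pool 1 (-0.43, adjusted p = 0.292) and stood at 0.05 (adjusted p = 0.900) under finer clustering. That for Ms4a6b was lost without neonatal pool 2 (-0.28, adjusted p = 0.587) and under finer clustering (-0.17, adjusted p = 0.544), and that for Ms4a6c held in each alternative. After thinning, the differences for Ms4a4c (-0.45, adjusted p = 0.546) and Ms4a6b (-0.40, adjusted p = 0.590) were lost too. For Ms4a6d the difference ran the other way and was not called (0.58 ± 0.22, adjusted p = 0.0977), though it was called under finer clustering (0.81, adjusted p = 0.0162).

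**Figure D4:**
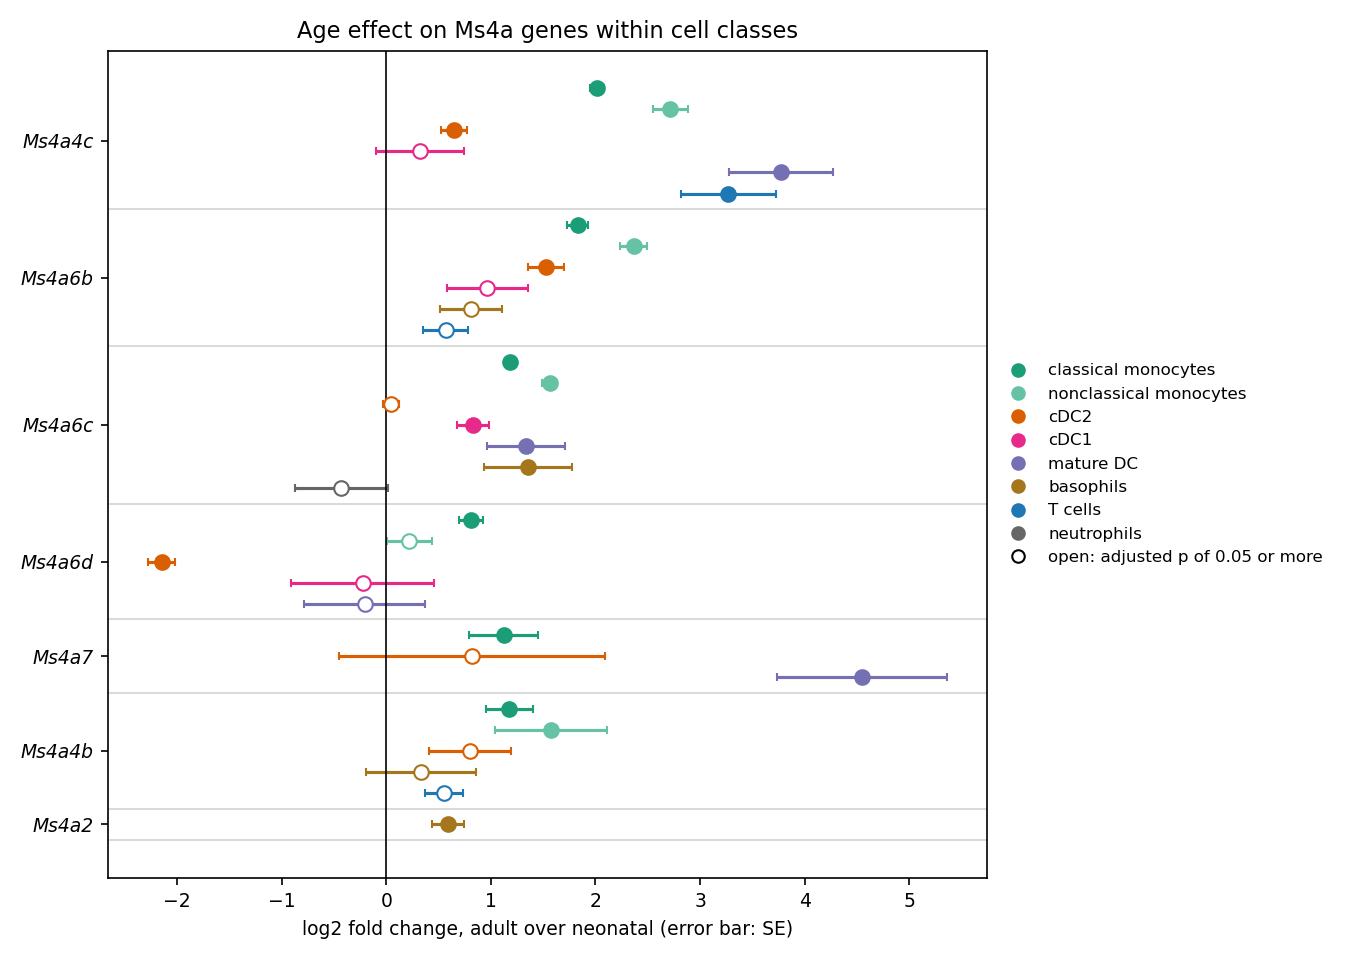
Log2 fold change, adult over neonatal, of each tested member in each class, with bars for the standard error and open points for an adjusted p of 0.05 or more. Of 33 tested pairs of a member and a class, 19 are called higher in adult and 1, Ms4a6d in cDC2, is called lower.

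cDC2, the CD4 T cell priming DC marked by Cd209a and Mgl2, gave the 1 member that was called lower in adults. Ms4a6d was read at 79.6 and 117 CPM in adult pools and at 508 and 459 CPM in neonatal pools, a log2 fold change of -2.15 ± 0.13 (edgeR, adjusted p = 5.27e-10). Every adult pool lay far below every neonatal pool, and 34.4% of adult against 66.9% of neonatal cDC2 had a UMI, or 6.74% and 27.1% after thinning. In the same cells Ms4a6b was higher in adult, at 96.4 and 91.9 CPM in adult and 32.9 and 41.0 CPM in neonatal pools (1.53 ± 0.17, adjusted p = 4.45e-09). Both calls held in each of 14 alternatives, with log2 fold changes of -2.45 to -1.86 for Ms4a6d and 0.81 to 1.66 for Ms4a6b. Of 6 members tested in cDC2, 2 were called higher and 1 lower, where 16.9% of all genes tested were called and 9.84% were called higher in adult.

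Ms4a6c, which differed in both monocyte classes, was read at 456 and 422 CPM in adult and 476 and 471 CPM in neonatal cDC2 (0.05 ± 0.08, adjusted p = 0.768). Ms4a4c was read at 175 and 146 CPM in adult and 116 and 113 CPM in neonatal cDC2 (0.65 ± 0.13, adjusted p = 0.000168). This call depended on which cells were counted as cDC2, as finer clustering split the class. Most of it, 86 and 71 adult and 262 and 161 neonatal cells, stayed together as cDC2. There Ms4a4c stood at 127 and 84.3 CPM in adult and 116 and 133 CPM in neonatal pools (-0.04 ± 0.16, adjusted p = 0.939), while Ms4a6d kept its difference (-1.86 ± 0.19, adjusted p = 2.39e-05).

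A second piece of the class, 131 cells of which 107 had been in cDC2, was led by Ppp1r14a, Bex6 and Cd7 and was not named. It was richer in Ms4a4c, at 350 and 438 CPM in adult and 258 and 118 CPM in neonatal pools, and in Ms4a6b, at 182 and 234 CPM in adult and 113 and 50.6 CPM in neonatal pools. It was poor in Ms4a6d, at 23.9 and 34.7 CPM in adult and 40.4 and 33.8 CPM in neonatal pools, and Ms4a6c stood at 628 and 642 CPM in adult and 605 and 734 CPM in neonatal pools. This piece held 49 and 31 adult and 27 and 24 neonatal cells. Another piece, of 86 proliferating cells, was mostly neonatal, with 2 and 4 adult and 55 and 25 neonatal cells, and its Ms4a6d stood at 176 and 200.2 CPM in adult and 712 and 505 CPM in neonatal pools.

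Proliferation markers over the whole class summed to 275 and 187 CPM in adult and 1150 and 849 CPM in neonatal pools. The part of proliferating cells in the cDC2 results was not tested.

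The C1q macrophages, 24 and 26 adult and 78 and 67 neonatal cells, were the last of these pieces, with 148 of 195 cells from cDC2. Ms4a7 lay in these cells and hardly at all in the remaining cDC2. Ms4a7 was read there at 24.04 and 95.8 CPM in adult and 33.8 and 48.6 CPM in neonatal pools, and in the remaining cDC2 at 0 and 0 CPM in adult and 0.577 and 0 CPM in neonatal pools. The level of Ms4a7 in cDC2 as first clustered, 2.81 and 18.4 CPM in adult and 2.62 and 11.9 CPM in neonatal pools (0.82 ± 1.27, adjusted p = 0.770), stood beside a C1q list that summed to 990 and 2390 CPM in adult and 735 and 1350 CPM in neonatal pools. Ms4a7 had a log2 fold change of 0.84 ± 0.48 in the C1q macrophages (adjusted p = 0.382). Ms4a6d was lower in adult there too, at 96.2 and 37.2 CPM in adult and 203 and 241 CPM in neonatal pools (-1.69 ± 0.34, adjusted p = 0.00351).

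**Figure D5:**
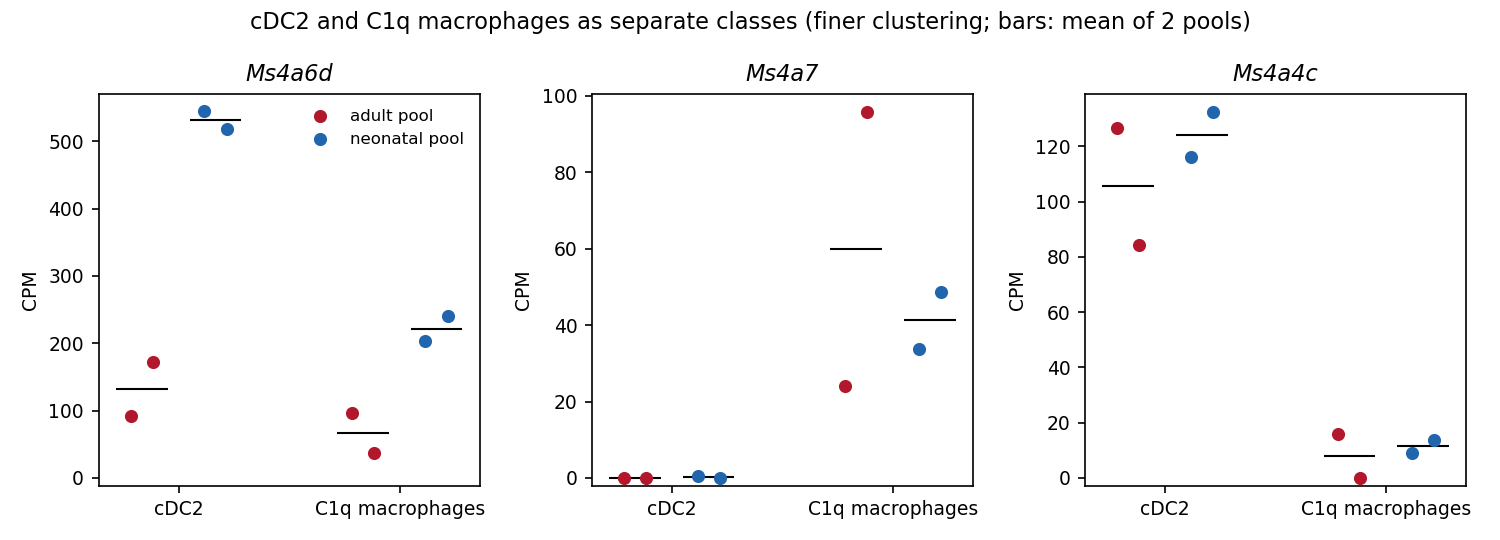
CPM of members in cDC2 and C1q macrophages as separate classes at the finer clustering, adult pools left of neonatal pools, with points for pools and bars for the mean of 2 pools. Ms4a7 is at or near 0 in cDC2 and at 24.04 to 95.8 CPM in C1q macrophages, and Ms4a6d is lower in both adult pools in both classes.

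cDC1, the cross-presenting DC marked by Xcr1 and Clec9a, held little of the family. Of 4 members tested, 1 was called, Ms4a6c, where 26.1% of all genes tested were called and 14.8% were called higher in adult. Ms4a6c was read at 55.7 and 40.7 CPM in adult and 32.7 and 24.3 CPM in neonatal pools (0.83 ± 0.15, adjusted p = 2.77e-05), with a UMI in 21.4% of adult and 13.2% of neonatal cells. This call was lost in 1 of 14 alternatives. Adult cDC1 lay mostly in cluster 9, with 243 and 169 cells, where Ms4a6c stood at 49.8 and 28.7 CPM in adult and 48.0 and 15.8 CPM in neonatal pools. Neonatal cDC1 lay mostly in cluster 1, with 703 and 652 cells, where it stood at 75.7 and 78.9 CPM in adult and 31.8 and 24.6 CPM in neonatal pools. The pools overlapped in cluster 9 and not in cluster 1. Markers of cDC2, where Ms4a6c was higher, summed to 690.0 and 745 CPM in adult and 138 and 132 CPM in neonatal cDC1 (12 of 13 detected, Clec4a4 at 0), and mature DC markers to 1260 and 1570 CPM in adult and 547 and 403 CPM in neonatal cDC1 (14 of 14 detected). Their part in the result was not tested. Ms4a6d stood at 24.3 and 27.0 CPM in adult and 42.5 and 18.6 CPM in neonatal cDC1 (-0.23 ± 0.68, adjusted p = 0.874), with the adult pools inside the neonatal range. Ms4a4c (0.32 ± 0.42, adjusted p = 0.651) and Ms4a6b (0.97 ± 0.38, adjusted p = 0.0560) stood at no more than 7.46 and 7.54 CPM in any pool.

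The age effects on Ms4a6c and Ms4a6d differed between cDC1 and cDC2, 2 of 6 members tested, where 9.12% of all genes tested were called for such a difference. That of Ms4a6c was larger in cDC1 by 0.77 ± 0.15 (adjusted p = 4.89e-06), and that of Ms4a6d by 2.00 ± 0.26 (adjusted p = 4.23e-07), since Ms4a6d was lower in adult cDC2 and not called in cDC1. Both differences were lost without adult pool 1, at 0.55 (adjusted p = 0.120) for Ms4a6c and 1.77 (adjusted p = 0.739) for Ms4a6d. That of Ms4a6d was also lost without adult pool 2 (2.21), and that of Ms4a6c after thinning (0.37, adjusted p = 0.781).

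Mature DC, the Ccr7 and Fscn1 expressing cells on their way to lymph nodes, had 3 of 4 tested members called, all higher in adult, where 30.2% of all genes tested were called and 15.5% were called higher in adult. Levels were low. Ms4a4c was read at 25.1 and 21.8 CPM in adult and 1.79 and 1.75 CPM in neonatal pools, from 33 adult and 8 neonatal UMIs (3.77 ± 0.50, adjusted p = 9.43e-07). Most of these adult UMIs lay in a few cells: finer clustering left 103 and 99 of the 113 and 104 adult cells in the class and moved no neonatal cell out of it. Ms4a4c then stood at 0 and 6.13 CPM in adult, from 4 UMIs, and at 1.79 and 1.75 CPM in neonatal pools, so the groups overlapped and the gene did not pass the filter. Ms4a7 was read at 8.38 and 14.5 CPM in adult and 0.448 and 0.438 CPM in neonatal pools, from 16 adult and 2 neonatal UMIs. The ratio of these pooled levels was 25.7 (exact 95% interval 6.04 to 230.0, counting error only; edgeR adjusted p = 7.65e-05), and the call was lost without neonatal pool 1 (adjusted p = 0.183) or neonatal pool 2 (adjusted p = 0.170). Both genes passed the filter on low counts through their adult pools alone, so a gene that passed had to differ and their calls and p-values support nothing further. Ms4a6c stood at 36.3 and 14.5 CPM in adult and 11.2 and 10.5 CPM in neonatal pools (1.34 ± 0.37, adjusted p = 0.00684), and its call was lost without adult pool 1 (0.53, adjusted p = 0.540). Under finer clustering it stood at 10.9 and 9.19 CPM in adult and 11.2 and 10.5 CPM in neonatal pools (0.01 ± 0.45, adjusted p = 0.990).

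The NK cell list in mature DC, with 13 of 14 markers detected and Prf1 at 0, summed to 6260 and 7200 CPM in adult and 11500 and 12200 CPM in neonatal pools, and its part in the results was not tested. Mature DC too lay in different clusters at each age. Cluster 5 held 9 and 9 adult and 418 and 391 neonatal cells, while cluster 10, led by Ccl22 and Apol7c, held 104 and 95 adult and 93 and 116 neonatal cells. Within cluster 10 alone, Ms4a4c was read at 27.5 and 23.3 CPM in adult and 5.88 and 1.55 CPM in neonatal cells (2.83 ± 0.62, adjusted p = 0.00524). With 18 and 15 adult and 3 and 1 neonatal UMIs, it again passed the filter through the adult pools alone. This call too is given as a description. Ms4a6c there had a log2 fold change of 0.50 ± 0.44 (adjusted p = 0.623). Ms4a7 had 16 adult UMIs and 1 neonatal UMI in cluster 10. The age effects in cDC2 and mature DC differed for 4 of 6 members tested, where 15.4% of all genes tested were called for such a difference: Ms4a4c (cDC2 minus mature DC, -3.05 ± 0.50, adjusted p = 6.60e-08), Ms4a7 (-3.86 ± 1.09, adjusted p = 0.00458), Ms4a6c (-1.20 ± 0.32, adjusted p = 0.00349) and Ms4a6d (-1.85 ± 0.61, adjusted p = 0.0365). That of Ms4a7 was lost without neonatal pool 2 (-2.43, adjusted p = 0.432). That of Ms4a6c was lost without adult pool 1 (-0.51, adjusted p = 0.648), neonatal pool 1 (adjusted p = 0.0592) or neonatal pool 2 (adjusted p = 0.0519), and that of Ms4a6d without any 1 of the 4 pools (adjusted p from 0.0549 to 0.341). Under finer clustering 3 of these differences were lost, at -0.87 (adjusted p = 0.651) for Ms4a4c, -0.05 (adjusted p = 0.972) for Ms4a6c and -0.29 (adjusted p = 0.905) for Ms4a6d, and Ms4a7 was not tested. After thinning the same 3 were not called, at -1.81 (adjusted p = 0.409), -0.89 (adjusted p = 0.552) and -1.41 (adjusted p = 0.718). The differences for Ms4a4c and Ms4a7 draw on mature DC values that passed the filter through the adult pools alone, and are given as a description.

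In neutrophils 1 member passed the filter, Ms4a6c, and it was not called, where 32.2% of all genes tested were called. It was read at 11.1 and 8.02 CPM in adult and 11.8 and 13.2 CPM in neonatal pools (-0.43 ± 0.45, adjusted p = 0.513). Alveolar macrophages were present in neonatal pools alone, with 55 and 41 cells, where Ms4a6d stood at 72.3 and 74.7 CPM, Ms4a6c at 34.8 and 23.8 CPM and Ms4a7 at 16.1 and 6.79 CPM. Innate lymphoid cells had Ms4a4b at 29.6 and 23.4 CPM in adult and 29.5 and 17.2 CPM in neonatal pools.

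Across the tested classes, 33 of the 64 pairs of a member and a class passed the filter on low counts and 20 were called. Ms4a4c was higher in adult in 5 of the 6 classes in which it was tested, Ms4a6c in 5 of 7, Ms4a6b in 3 of 6, Ms4a4b in 2 of 5, Ms4a7 in 2 of 3, Ms4a2 in 1 of 1 and Ms4a6d in 1 of 5. Over all genes tested in these classes 21.1% were called and 11.5% were called higher in adult. In 4 of the 20 calls (Ms4a4c in T cells and mature DC, Ms4a7 in mature DC and Ms4a4b in nonclassical monocytes) the gene passed the filter through the adult pools alone. Among the 20 calls, 13 held without each pool in turn.

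Relatives of the family in the same superfamily were higher in adult monocytes too. Of 16 such genes listed, 4 had at least 20 UMIs, and all 4 were called higher in adult in classical monocytes, where 11.2% of all genes tested were. Tmem176b, a membrane protein gene of myeloid cells, was read at 385 and 399 CPM in adult and 105 and 97.3 CPM in neonatal pools (2.15 ± 0.09, adjusted p = 1.25e-51), and its neighbour Tmem176a had a log2 fold change of 2.06 ± 0.12 (adjusted p = 2.37e-36). Ms4a8a was read at 94.3 and 95.6 CPM in adult and 25.8 and 24.6 CPM in neonatal pools (2.10 ± 0.17, adjusted p = 2.00e-24), and Ms4a4a, a macrophage gene, at 16.8 and 21.0 CPM in adult and 9.16 and 12.7 CPM in neonatal pools (0.98 ± 0.31, adjusted p = 0.0149). The median of the 4 was 2.08, against a median of -0.0018 over all genes tested. In nonclassical monocytes 3 of 4 were higher in adult, without Ms4a8a (0.05 ± 0.50, adjusted p = 0.968), in cDC2 2 of 3, in cDC1 2 of 2 and in mature DC 2 of 2. Over all genes tested, 10% were called higher in adult in nonclassical monocytes, 9.84% in cDC2, 14.8% in cDC1 and 15.5% in mature DC. None of 2 was called in T cells and none of 1 in neutrophils.

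Genes for reported protein partners of MS4A proteins moved less evenly. Of 7 listed, 5 had at least 20 UMIs. Tnfrsf18, which encodes GITR, was higher in adult in cDC1 (1.12 ± 0.18, adjusted p = 1.32e-06), cDC2 (1.10 ± 0.24, adjusted p = 0.000687) and mature DC (2.26 ± 0.23, adjusted p = 1.01e-08). In T cells, where Ms4a4b was high, Tnfrsf18 was not called (0.13 ± 0.27, edgeR adjusted p = 0.860). Fcer1g was called higher in adult in cDC1 (0.64 ± 0.06), cDC2 (0.25 ± 0.05) and mature DC (0.99 ± 0.12), and was not called in the other tested classes. Cd40, which encodes a costimulatory receptor, was higher in adult in classical monocytes (3.84 ± 0.33, adjusted p = 1.83e-21), nonclassical monocytes (2.96 ± 0.50, adjusted p = 5.41e-08) and cDC1 (1.03 ± 0.27, adjusted p = 0.00222). It was lower in adult in mature DC (-0.36 ± 0.13, adjusted p = 0.0381). Over all genes tested, 14.8% were called higher in adult in cDC1, 9.84% in cDC2, 15.5% in mature DC, 11.2% in classical and 10% in nonclassical monocytes. Trem2, which encodes a lipid receptor of macrophages, was not called in classical monocytes (-0.06 ± 0.14, adjusted p = 0.836).

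Of the B cell receptor genes listed beside Ms4a1, 4 were tested in nonclassical monocytes, with 2 called higher and 1 lower in adult, and 3 in classical monocytes, with 1 higher and 2 lower. Ighm, the immunoglobulin heavy chain of IgM, was higher in adult in nonclassical monocytes (3.86 ± 0.15), classical monocytes (2.41 ± 0.14) and neutrophils (3.399 ± 0.23). Of the list, 1 of 3 was called higher in adult in cDC1 and in mature DC, 1 higher and 1 lower of 3 in cDC2, and none of 1 in basophils or T cells. The mast cell and basophil list outside basophils had 3 of 3 called higher in adult in cDC1, 2 higher and 1 lower of 3 in cDC2, 1 of 2 higher in classical monocytes, mature DC and neutrophils, and none in nonclassical monocytes or T cells. For both lists, the shares of all genes tested that were called were 26.1% in cDC1, 16.9% in cDC2, 30.2% in mature DC and 32.2% in neutrophils. They were 18.3% in classical monocytes, 19.8% in nonclassical monocytes, 8.91% in basophils and 4.65% in T cells.

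By likeness of pattern over the 32 sums of a class in a pool (Pearson's r of log2(CPM + 1), a description over sums that share pools), Ms4a2 was most like D430036J16Rik (0.99), Fcer1a (0.99) and Gata2 (0.98), where Fcer1a and Gata2 are basophil genes. Ms4a4b was most like Klrb1f (0.94), Gimap8 (0.90) and Pdcd4 (0.89), and Ms4a6c most like Hpgd (0.88) and Ctsc (0.88). Ms4a4c was most like Prxl2b (0.80), Neurl2 (0.80) and Galnt9 (0.80), Ms4a6b most like Dennd4c (0.85), Trmt112 (0.84) and Gm17745 (0.83), and Ms4a6d most like Srsf9 (0.90), Tep1 (0.88) and Ndufb8 (0.87). Within the family the closest pairs were Ms4a4c with Ms4a7 (0.79) and Ms4a4b with Ms4a6b (0.79), while Ms4a6b with Ms4a6c, which share sequence, stood at 0.56. Ms4a7 was most like Stxbp6 (0.83) and Mrfap1 (0.80). For Ms4a1 the closest was Cdkn2a (0.66), as B cells were too few to be among these sums.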

How the data were processed

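Single-cell RNA was captured in droplets (Chromium 3' chemistry) and the deposited matrix holds raw UMI counts per gene and cell, made with Cell Ranger 6.1.2 on mm10, per the submitters' processing notes, which also name Seurat 4.2.0. Age and pool were read from the barcode endings that the series' design text explains. Of 14710 barcodes, those with at least 500 genes, at least 1000 UMIs, at most 10% mitochondrial UMIs and at most 20% of hashtag counts from the other hashtag were kept, and predicted doublets (21 and 14 in adult pools, 101 and 87 in neonatal pools) were left out. The 12740 kept cells were clustered with scanpy 1.11.5 (2965 variable genes without any Ms4a gene, 30 components, 15 neighbours, Leiden resolution 1) and clusters were named from marker lists.

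UMIs were summed per class and pool and tested between ages with edgeR 4.0.16 (TMM scaling, filterByExpr, quasi-likelihood test), with p-values adjusted by Benjamini-Hochberg over all genes tested in a class and a threshold of 0.05. Differences of age effects were tested in a fit over both classes. Alternatives were DESeq2 1.42.0, its size factors, no filter, each pool left out, a replicate block, doublets kept, Leiden resolution 2, a stricter cell filter, cells thinned to 1000 UMIs and Ms4a genes in the clustering. The steps were tested on simulated data. Named genes were the 8 members, genes with at least 20 UMIs from 4 lists (superfamily relatives, reported partners, B cell receptor genes, mast cell and basophil genes) and, for each member, the 3 genes closest in pattern, of which 1 is not reported here. The members and lists were chosen with earlier results of these data known. Ms4a6e, Ms4a19, Ms4a20 and Clec7a were not analysed here.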

Additional observations from a re-analysis of the deposited data

Results flagged for a closer look

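The effect of age differed between related cell classes for 9 of 18 combinations of a member and a pair of classes, by an edgeR quasi-likelihood test of the difference itself (n = 2 pools per age). Over all genes tested, 9.12% were called for a difference between cDC1 and cDC2, 7.63% between classical and nonclassical monocytes and 15.4% between cDC2 and mature DC. Each value is the log2 fold change, adult over neonatal, in the first class minus that in the second. Between cDC1 and cDC2, Ms4a6c differed by 0.77 and Ms4a6d by 2.00. Between classical and nonclassical monocytes, Ms4a4c differed by -0.73, Ms4a6b by -0.54 and Ms4a6c by -0.38. Between cDC2 and mature DC, Ms4a7 differed by -3.86, Ms4a4c by -3.05, Ms4a6c by -1.20 and Ms4a6d by -1.85. In mature DC, Ms4a7 and Ms4a4c had passed the filter on low counts through the adult pools alone, so their differences are given as a description. Under finer clustering Ms4a7 was not tested for this pair. The others were not called there, at -0.87 (adjusted p = 0.651) for Ms4a4c, -0.05 (adjusted p = 0.972) for Ms4a6c and -0.29 (adjusted p = 0.905) for Ms4a6d. In the monocytes all 3 genes were higher in adult in both classes, and the difference was one of size. Under finer clustering that difference was not called for Ms4a4c (0.05, adjusted p = 0.900) or Ms4a6b (-0.17, adjusted p = 0.544). For Ms4a6c it was still called there (-0.30, adjusted p = 0.00343). Both differences between cDC1 and cDC2 were lost without adult pool 1, at 0.55 for Ms4a6c and 1.77 for Ms4a6d. Ms4a6d was lower in adult cDC2, while in mature DC (-0.21 ± 0.58, adjusted p = 0.828) and cDC1 it was not called.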

How the results depend on the processing

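Of the 20 calls between ages, 11 held in each alternative that tested them, and 13 held without each pool in turn. Among the 11, Ms4a4c in mature DC, did not pass the low-count filter at resolution 2. Leaving out 1 pool at a time gave 15 to 20 calls, 13 to 19 of them higher and 1 to 2 lower in adult. Thinning cells to 1000 UMIs left 9 calls, 8 of them higher in adult, and keeping doublets gave 2 lower ones. Clusters with at least 20 cells in every pool were an alternative chosen after seeing the data. It left 5 classes, without either monocyte class or neutrophils, so the monocyte calls could not be tested in it. It gave 8 calls, 7 of them higher in adult. In the main result the same classes had 1 call in T cells, 2 in basophils, 1 in cDC1, 3 in cDC2 and 3 in mature DC. Over all genes, the 11907 calls became 4918 with the DESeq2 Wald test, 4075 after thinning and 8086 to 9642 without 1 pool. Shared clusters gave 4718, a total over their 5 classes alone and so not to be set against the 11907 of all 8 classes. The 9 differences between classes became 4 at resolution 2, 2 after thinning and 5 to 7 without 1 pool, and over all genes the 3007 such differences became 1758 and 609, and 1457 to 2356 without 1 pool. Of the 4 differences at resolution 2, that of Ms4a6d between monocyte classes (0.81, adjusted p = 0.0162) was not among the 9. The class with the highest mean was the same for 4 of 7 members at resolution 2 and for 5 to 7 of them without 1 pool. Ms4a4c changed sign at resolution 2 in cDC2 (-0.0358) and in the difference between monocyte classes (0.0495); in cDC2 the cells counted had changed, and for the monocytes the cause was not tested. The replicate block gave 23 calls; deviations of pools with the same number correlated at 0.0156 over 9985 genes, so the samples share only a number. In basophils, the Ms4a2 call was also lost with DESeq2 (0.60, adjusted p = 0.271), with no filter (0.44, adjusted p = 0.264) and after thinning (0.55, adjusted p = 0.193). Under the stricter cell filter neutrophils could not be tested, and protein identity between members was not run. Low depth limits Ms4a7 and the members in mature DC, basophils and T cells.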

Other observations

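A neonatal cluster of 19 and 19 cells, led by Adamdec1, F7, Pld3 and Axl, was not named and held no adult cell. Ms4a6c stood there at 475 and 540 CPM, Ms4a6d at 116 and 207 CPM and Ms4a6b at 52.8 and 126 CPM, and another family member, Ms4a8a, was among its leading genes.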
